A study of Homo sapiens with 15 samples.

Results

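The 10 genes examined belong to leukocyte adhesion: the ligands of integrins ICAM1 and ICAM3, the integrin alpha subunits ITGA4, ITGA6 and ITGAL, the integrin beta subunits ITGB1, ITGB2 and ITGB7, the hyaluronan receptor CD44 and the selectin ligand SELPLG. They were chosen by gene symbol for their known roles, with earlier results of these data known. All 10 symbols were found among the 20468 RefSeq genes of each of the 2 expression tables. The RNA-Seq libraries come from 2 human multiple myeloma (MM) cell lines, MM.1S with 3 replicates per condition and RPMI8226 with 2, which makes 15 libraries. MM cells grew for 48 h alone (MONO), in the upper insert of a transwell above HS5 cells (TSW), or in the lower chamber mixed with the HS5 cells (CO). HS5 is an established human bone marrow stromal cell line, and since MM cells lay in both compartments of the system, TSW and CO cells may come from the same wells and TSW cells may have had MM cells as well as HS5 below them. Cells were sorted as CD90- CD38+ before RNA isolation, after trypsin for the co-cultures, a gate meant to keep MM cells and leave out CD90+ stromal cells. Each cell line is a single line and the stroma is a single line, so the values describe these lines. TSW against MONO asks what changes with factors that cross the membrane from the cells below, CO against MONO adds contact with the stromal cells, and CO against TSW asks what contact adds.

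Integrins are pairs of an alpha and a beta subunit that bind matrix proteins or ligands on other cells. ITGA4 pairs with ITGB1 into a receptor for VCAM1 and fibronectin or with ITGB7 into a receptor for MADCAM1, ITGAL pairs with ITGB2 into the leukocyte integrin that binds ICAM1 and ICAM3, and ITGA6 pairs with ITGB1 or ITGB4 into laminin receptors. CD44 binds hyaluronan, SELPLG carries the glycans that selectins recognise during rolling, and together these molecules are known for the homing of myeloma cells to marrow and their hold on stroma.

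Levels are given as RPKM, the paired-end tags (PETs) of a gene per kilobase of its exons, scaled by the PETs of the whole library, so that genes of different length can be set side by side. Libraries held 9008909 to 19050583 PETs, and 1 PET on a gene of 2 kb equals 0.0262 to 0.0555 RPKM. Changes were tested with limma on log2(RPKM + 1) in each line over all genes with a mean of at least 1 RPKM, and calls required a fold change over 1.5 together with a p under 0.05 after adjustment by Benjamini and Hochberg. On this scale the fold change of a gene with a low level is smaller than the ratio of its RPKM values. A difference between the lines is the log2 fold change in RPMI8226 minus that in MM.1S, called at an adjusted p under 0.05 with no fold change threshold. Nothing in the labels says that replicates came from separate cultures, so each p measures the spread between these samples, which may be technical. In a mixed sample, fewer cells of a type and less RNA per cell cannot be told apart.

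The plasma cell label of the libraries was checked on 9 marker genes. All 9 were at 1 RPKM or more in every MM.1S library and 8 of 9 in every RPMI8226 library, with JCHAIN the most abundant at 1366 to 4102 RPKM. SLAMF7 was the exception, at 0.0184 to 0.104 RPKM in RPMI8226. CD38, on which cells were sorted, lay between 38.4 and 65.0 RPKM in MM.1S with overlap of MONO with TSW and CO, and in RPMI8226 stood at 16.0 and 16.0 RPKM in MONO, 49.6 and 42.0 in TSW and 52.2 and 53.7 in CO. TNFRSF17, another of the 9 and picked out after its values were seen, was lower in TSW and CO in both lines, at 145 to 216 RPKM in MM.1S MONO, 47.4 to 49.2 in TSW and 34.1 to 42.7 in CO, and at 73.0 and 68.8, 6.40 and 4.43, and 4.13 and 3.96 RPKM in RPMI8226. Others of the 9 went the other way in both lines. Mean XBP1 in MONO, TSW and CO was 421.3, 771.5 and 721.1 RPKM in MM.1S. In RPMI8226 it was 191.2, 453.2 and 406.1. PRDM1 (31.0, 52.1 and 49.9, then 8.08, 16.4 and 18.7) and POU2AF1 (68.55, 114 and 92.6, then 61.8, 132 and 125) were also higher. JCHAIN was lower in MM.1S (3753, 2075 and 1985) and higher in RPMI8226 (1416, 2469 and 2871). These marker levels move with the conditions beside the changes of the 10 genes, and a link was not tested. Replicate 1 of MM.1S MONO had the fewest PETs, 9008909, and among the MONO libraries of that line it had the lowest levels of ITGA4, ITGA6, ITGB1 and CD44 and the highest of ICAM3, ITGAL, ITGB7 and SELPLG. Calls of the 10 genes that are lost or gained without it are given with and without it.

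In MM.1S, 9 of the 10 genes passed the filter on low levels and ITGB2 did not. ICAM1 and ITGA6 were higher in TSW than in MONO, 2 of 9 against 6.48% of all 10153 genes tested, and CD44 was lower, 1 of 9 against 4.16%. CO against MONO gave the same 2 higher genes, beside 7.13% of all genes, and 2 lower genes, ITGB7 and CD44, beside 4.65%. Without replicate 1 of MONO the counts were 1 higher (ICAM1) and 2 lower (ITGA4 and CD44) in both comparisons, with ITGA6 and, in CO, ITGB7 no longer called. Between CO and TSW limma called none of the 9 in either direction, where 0.374% of all genes were higher and 0.0394% lower; 1 of the 9 had an unadjusted p under 0.05 and voom called 0. The median log2 fold change of the 9 genes was -0.02 in TSW and -0.20 in CO against MONO, beside 0.01 and 0.01 over all genes tested.

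RPMI8226 gave a different count, with ITGA6 the 1 gene under the filter and ITGB2 past it only through TSW and CO. By limma 7 of 9 tested genes were higher in TSW than in MONO (ICAM1, ITGA4, ITGAL, ITGB1, ITGB2, ITGB7 and SELPLG), beside 14.5% of all 10319 genes tested, and 0 were lower, beside 17.9%; by voom the lower count was also 0, and no gene with an unadjusted p under 0.05 was lower. In CO against MONO 6 were higher, all of these except ITGB7, beside 16.4%, and 0 were lower by limma and by voom, beside 22.9%, with 8 of 9 at an unadjusted p under 0.05 in either direction. In CO against TSW limma called 0 of 9, beside 1.90% of all genes higher and 2.39% lower; 4 of the 9 had an unadjusted p under 0.05, and voom called 1, CD44. With no filter, limma called 7 of 10 higher in TSW against MONO, beside 1588 of all 16784 genes. The median log2 fold change of the 9 genes was 0.83 in TSW and 0.9995 in CO against MONO, beside -0.08 and -0.09 over all genes tested. With median-of-ratios scaling the genes called in RPMI8226 were 1710 higher and 1538 lower in TSW, against 1500 and 1852 as reported, and 1994 and 1925 in CO, against 1693 and 2363, so that more genes were higher than lower. Both comparisons with MONO use the same MONO libraries, so their values stand side by side and are not independent.

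**Figure D1:**
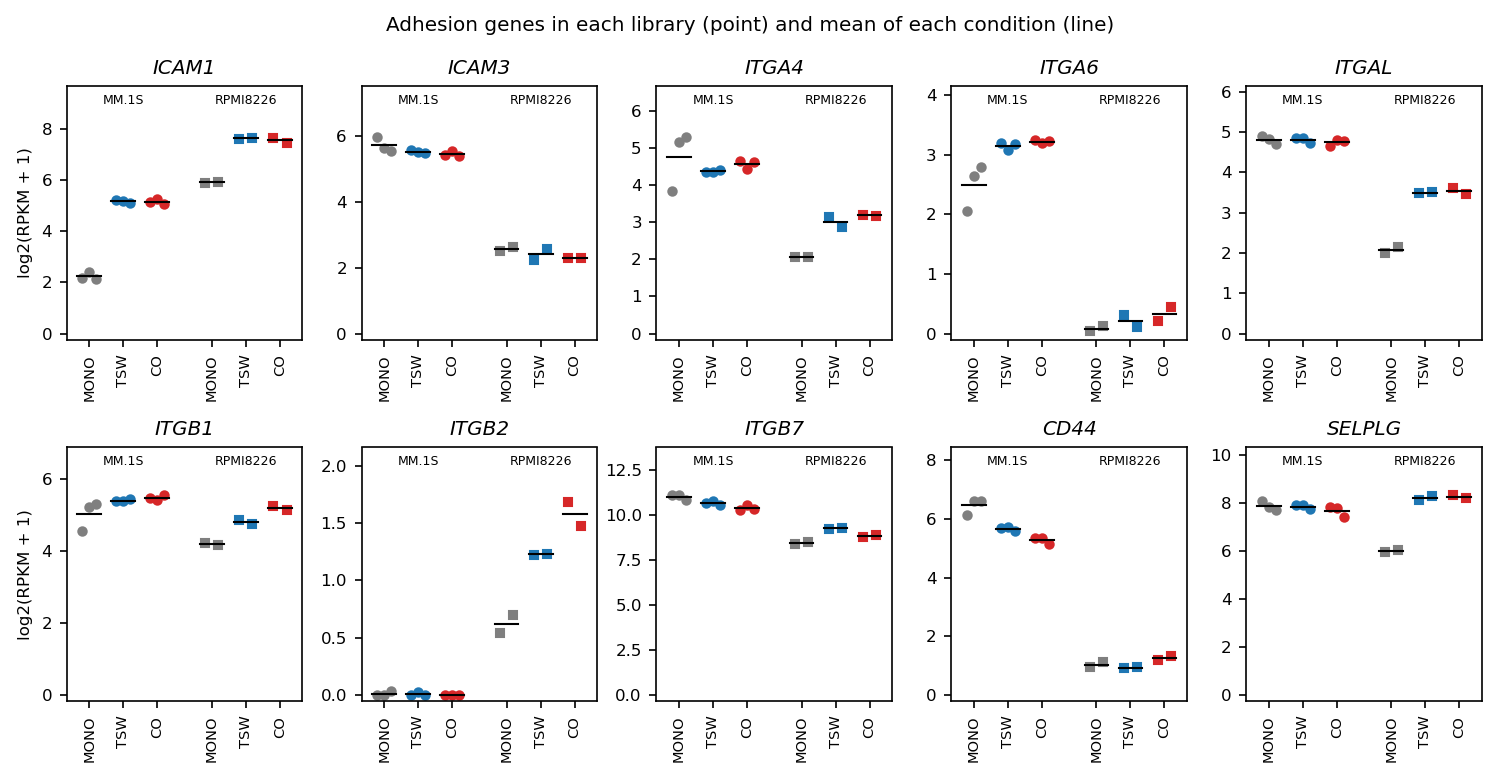
Level of each of the 10 genes as log2(RPKM + 1) in each library (circles, MM.1S; squares, RPMI8226; colours, condition), with the condition mean as a line. ICAM1 stands higher in TSW and CO than in MONO in both lines, while ITGB2 is at or near 0 in MM.1S and ITGA6 near 0 in RPMI8226.

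ICAM1, the immunoglobulin-family ligand of the ITGAL and ITGB2 integrin (Entrez ID 3383, GRCh38 chromosome 19, 10271120 to 10286615), was the gene with the largest change in MM.1S among the 10. Its promoter is shown because ICAM1 rose in both lines; the 300 bases run from 250 before to 50 after the RefSeq start, chr19:10270870-10271169 on the plus strand of GRCh38.p14.

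ICAM1: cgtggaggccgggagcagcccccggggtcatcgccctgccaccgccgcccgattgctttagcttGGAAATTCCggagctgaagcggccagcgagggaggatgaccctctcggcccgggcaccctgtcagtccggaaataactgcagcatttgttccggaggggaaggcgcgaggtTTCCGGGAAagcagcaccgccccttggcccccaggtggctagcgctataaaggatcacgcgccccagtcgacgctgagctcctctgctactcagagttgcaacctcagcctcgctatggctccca

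The first run of capitals matches GGNNNTTCC, a form of NF-kappaB site, and starts at base -186 from the RefSeq start; the second matches TTCNNNGAA, a form of STAT site, and starts at base -75. On either strand, GGNNNTTCC occurs in 20.1% and TTCNNNGAA in 7.66% of the 35116 promoters of the same length, and the AP-1 type letters TGANTCA, found in none of the promoters of these genes, in 7.71%. RefSeq promoters were matched for 7 of the 10 genes with 11 entries, and ITGAL, ITGB2 and SELPLG had none. A match is a description of letters and was not tested as a site.

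In MM.1S, ICAM1 stood at 3.45, 4.35 and 3.41 RPKM in the MONO libraries, 36.3, 35.8 and 33.7 in TSW, and 34.8, 37.3 and 32.2 in CO. Every TSW and CO library lay far above every MONO library, and TSW and CO overlapped. The log2 fold change was 2.94 in TSW (SE 0.10, limma adjusted p = 2.48e-08) and 2.92 in CO (adjusted p = 8.65e-09), and the ratio of mean RPKM was 9.43 and 9.30. In RPMI8226 the MONO libraries held 58.4 and 60.5 RPKM, the TSW libraries 194 and 201, and the CO libraries 202 and 176. Both MONO libraries lay below all TSW and CO libraries, and TSW and CO overlapped. The log2 fold change in RPMI8226 was 1.72 in TSW (SE 0.08, limma adjusted p = 3.45e-08) and 1.65 in CO (adjusted p = 3.37e-08). LIMASI and ICAM4-AS1, noncoding RNA genes, overlap ICAM1, and the strand on which PETs were counted is not stated, so reads of overlapping genes cannot be told apart. The same holds for ITGAL (ITGAL-AS1, MIR4518 and RNU7-61P), ITGA6 (ITGA6-AS1 and PDK1-AS1), ITGB1 (SNORA86 and AK3P5), SELPLG (LOC105369968) and the genes for which an overlap is named beside them; ICAM3 has none.

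ICAM3, a second ligand of the ITGAL and ITGB2 integrin and a molecule of resting leukocytes (Entrez ID 3385, chromosome 19, 10333776 to 10339624), was called in no comparison. In MM.1S its level was 61.3, 48.6 and 45.5 RPKM in MONO, 46.1, 44.0 and 43.5 in TSW, and 41.2, 45.5 and 40.6 in CO. These ranges overlapped, and the log2 fold change against MONO was -0.20 in TSW (limma adjusted p = 0.203) and -0.27 in CO (adjusted p = 0.0858), or -0.08 and -0.15 without replicate 1 of MONO. RPMI8226 held 4.62 and 5.16 RPKM in MONO, 3.71 and 4.96 in TSW, and 3.92 and 3.85 in CO, where both CO libraries lay below both MONO libraries (log2 fold change -0.27, limma adjusted p = 0.067). Of its 3 RefSeq promoter entries, the 1 at chr19:10334771-10335070 on the minus strand holds GGNNNTTCC, read on the other strand, starting at base -7; it is shown as the only other match among the genes and stands in capitals.

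ICAM3: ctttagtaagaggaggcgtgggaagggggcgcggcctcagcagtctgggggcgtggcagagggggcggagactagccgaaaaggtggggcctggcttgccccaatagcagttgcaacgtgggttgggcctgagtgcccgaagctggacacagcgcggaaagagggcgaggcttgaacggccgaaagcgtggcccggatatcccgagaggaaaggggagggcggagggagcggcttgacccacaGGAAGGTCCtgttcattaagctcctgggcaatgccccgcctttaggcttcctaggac

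ITGA4, the alpha subunit of the receptors for VCAM1 and MADCAM1 (Entrez ID 3676, chromosome 2, 181457205 to 181538940), was higher in TSW and CO in RPMI8226 and was not called in MM.1S. In RPMI8226 it stood at 3.19 and 3.18 RPKM in MONO, 7.89 and 6.37 in TSW, and 8.20 and 7.96 in CO. Both TSW and both CO libraries lay above both MONO libraries. ITGA4 rose by a log2 fold change of 0.95 in TSW (SE 0.11, limma adjusted p = 2.03e-05) and 1.12 in CO (adjusted p = 4.63e-06). In MM.1S the MONO libraries were 13.3, 34.6 and 38.6 RPKM, the TSW libraries 19.5, 19.3 and 20.2, and the CO libraries 24.1, 20.7 and 23.6. Replicate 1 of MONO lay below every TSW and CO library and replicates 2 and 3 of MONO above every one. With all libraries the log2 fold change was -0.40 in TSW (SE 0.29, limma adjusted p = 0.335) and -0.20 in CO (adjusted p = 0.625), and without replicate 1 of MONO it was -0.86 (adjusted p = 2.78e-05) and -0.66 (adjusted p = 0.000179), past both thresholds. Over the alternative settings the limma adjusted p for TSW ranged from 2.78e-05 to 0.75 and for CO from 0.000179 to 0.99. The promoter entry of ITGA4, chr2:181457136-181457435 on the plus strand, is shown because ITGA4 rose in RPMI8226. It holds none of the 3 motifs in its 300 bases. Unlike the window of ICAM1, this window is set on a start that lies inside the gene span given above. Bases before 181457136 were not searched. CERKL, a protein-coding gene, overlaps ITGA4.

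ITGA4: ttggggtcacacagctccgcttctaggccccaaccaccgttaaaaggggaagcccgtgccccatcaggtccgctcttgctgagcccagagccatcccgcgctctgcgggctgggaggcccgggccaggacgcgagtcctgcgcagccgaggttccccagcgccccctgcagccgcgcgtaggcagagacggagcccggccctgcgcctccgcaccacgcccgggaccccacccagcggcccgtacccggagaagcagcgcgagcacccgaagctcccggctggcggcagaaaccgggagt

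ITGA6, an alpha subunit of laminin receptors (Entrez ID 3655, chromosome 2, 172427336 to 172506459), was measured well above 0 only in MM.1S. There it stood at 3.13, 5.27 and 5.94 RPKM in MONO, 8.15, 7.44 and 8.08 in TSW, and 8.45, 8.11 and 8.34 in CO. All TSW and CO libraries lay above all MONO libraries, and TSW and CO overlapped. ITGA6 rose by 0.65 on the log2 scale in TSW (SE 0.16, limma adjusted p = 0.0137) and 0.72 in CO (adjusted p = 0.0079). Without replicate 1 of MONO the log2 fold change was 0.43 (adjusted p = 0.00251) and 0.50 (adjusted p = 0.00104), both under the fold change of 1.5, and without replicate 3 of TSW the change in TSW was about as large, 0.64, with an adjusted p of 0.0503. In RPMI8226 the 6 libraries held 0.0276 to 0.366 RPKM, which is 2 to 40 PETs, and ITGA6 was not tested.

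ITGAL, the alpha subunit that pairs with ITGB2 (Entrez ID 3683, chromosome 16, 30472742 to 30523185), differed by line. RPMI8226 had 2.98 and 3.44 RPKM in MONO, 10.3 and 10.3 in TSW, and 11.2 and 10.1 in CO. The MONO libraries were the low ones, and TSW and CO overlapped. Against MONO this was a log2 fold change of 1.43 in TSW (SE 0.09, limma adjusted p = 5.26e-07) and 1.47 in CO (adjusted p = 2.92e-07). All 9 MM.1S libraries lay between 24.3 and 28.7 RPKM, with overlap of all conditions and log2 fold changes of 0.00 in TSW (adjusted p = 0.991) and -0.07 in CO (adjusted p = 0.587).

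ITGB1, the beta subunit shared by ITGA4, ITGA6 and ITGAV (Entrez ID 3688, chromosome 10, 32900318 to 32958230), had in RPMI8226 17.5 and 17.1 RPKM in MONO, 27.8 and 26.0 in TSW, and 37.1 and 34.2 in CO. The conditions did not overlap, in the order MONO, TSW, CO. Against MONO the log2 fold change was 0.61 in TSW (SE 0.08, limma adjusted p = 5.36e-05) and 0.9995 in CO (adjusted p = 1.04e-06), and between CO and TSW it was 0.39 (adjusted p = 0.00526), under the fold change of 1.5. Without replicate 1 of TSW the change in TSW was 0.56, also under that threshold. In MM.1S the MONO libraries were 22.7, 36.2 and 38.2 RPKM, the TSW libraries 40.5, 40.6 and 42.7, and the CO libraries 43.6, 41.5 and 46.3. Each TSW and CO library lay above each MONO library, by little for replicates 2 and 3 of MONO. The log2 fold change of 0.38 in TSW (limma adjusted p = 0.105) and of 0.46 in CO (adjusted p = 0.0503) was not called; without replicate 1 of MONO these were 0.15 (adjusted p = 0.149) and 0.23 (adjusted p = 0.0323), also not called. Without replicate 3 of MONO the change in CO was 0.59 (adjusted p = 0.0159) and was called.

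ITGB7, the beta subunit that pairs with ITGA4 and ITGAE (Entrez ID 3695, chromosome 12, 53191323 to 53207251), was the most abundant of the 10 genes in every library. In MM.1S it stood at 2226, 2164 and 1822 RPKM in MONO, 1632, 1719 and 1508 in TSW, and 1219, 1482 and 1306 in CO. No condition overlapped another, and CO was lowest. The log2 fold change was -0.35 in TSW (SE 0.14, limma adjusted p = 0.0877) and -0.63 in CO (adjusted p = 0.00737), where it was called. Without replicate 1 of MONO it was -0.58 in CO and without replicate 1 of CO -0.57, both under the fold change of 1.5. In RPMI8226 the MONO libraries were 326 and 354 RPKM, the TSW libraries 587 and 623, and the CO libraries 437 and 467. TSW was highest and CO lay between TSW and MONO, with no overlap. ITGB7 rose in TSW by a log2 fold change of 0.83 (SE 0.07, limma adjusted p = 3.28e-06); the 0.41 in CO (adjusted p = 0.000415) and the -0.42 of CO against TSW (adjusted p = 0.00259) passed the adjusted p but not the fold change. ZNF740, a protein-coding gene, overlaps ITGB7, whose promoter, chr12:53207202-53207501 on the minus strand, is shown as that of the most abundant gene and holds none of the 3 motifs.

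ITGB7: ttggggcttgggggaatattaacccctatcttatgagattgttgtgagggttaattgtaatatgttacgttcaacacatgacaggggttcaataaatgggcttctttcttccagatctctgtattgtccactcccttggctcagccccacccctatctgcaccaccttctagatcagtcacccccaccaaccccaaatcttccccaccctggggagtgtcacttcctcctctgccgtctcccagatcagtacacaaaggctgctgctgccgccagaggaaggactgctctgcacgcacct

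The balance of the beta subunits was described as the RPKM of ITGB7 over that of ITGB1. It was 98.0, 59.8 and 47.7 in MM.1S MONO, 40.3, 42.4 and 35.3 in TSW, and 28.0, 35.8 and 28.2 in CO. Every MONO library lay above every TSW and CO library, and the highest CO value passed the lowest TSW value. RPMI8226 had ratios of 18.6 and 20.7 in MONO, 21.1 and 23.9 in TSW, and 11.8 and 13.7 in CO, where CO lay below the other conditions without overlap. These ratios are a description without a test.

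**Figure D2:**
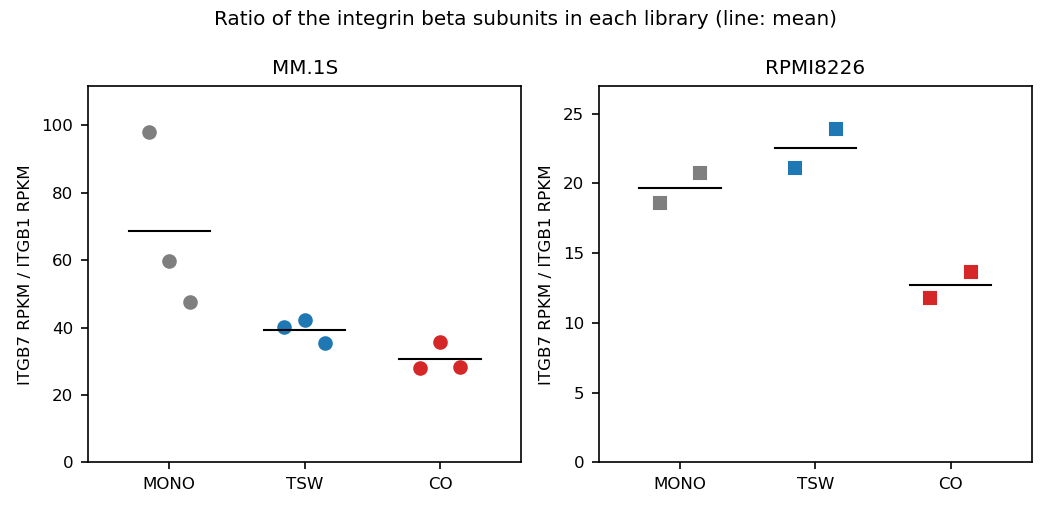
RPKM of ITGB7 divided by RPKM of ITGB1 in each library, by condition, with the mean as a line; the panels have different axes. In MM.1S the MONO libraries (47.7 to 98.0) are all above TSW and CO, and in RPMI8226 the CO libraries (11.8 and 13.7) are below all others.

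ITGB2, the beta subunit of leukocyte integrins (Entrez ID 3689, chromosome 21, 44885953 to 44928815), had 0 PETs in 7 of 9 MM.1S libraries and 1 PET in replicate 3 of MONO and replicate 2 of TSW. A count of 0 allows a level of up to 3 PETs, 0.047 to 0.0994 RPKM in these libraries, for counting error only, so ITGB2 was not detectable in MM.1S at this depth beyond those PETs. In RPMI8226 it stood at 0.455 and 0.625 RPKM in MONO, 1.34 and 1.35 in TSW, and 2.21 and 1.78 in CO, from 19 to 121 PETs. The conditions did not overlap, with MONO lowest and CO highest. ITGB2 rose by 0.61 on the log2 scale in TSW (SE 0.12, limma adjusted p = 0.000918) and 0.96 in CO (adjusted p = 2.92e-05), while mean RPKM was 2.49 and 3.70 times that of MONO. ITGB2 lies under 1 RPKM in MONO and passed the filter through its TSW and CO levels; with no filter it was also called, with adjusted p of 0.00597 and 0.000895. Without replicate 1 of MONO the change in TSW was 0.53, under the fold change of 1.5. ITGAL over ITGB2 in RPKM was 6.55 and 5.50 in MONO, 7.67 and 7.66 in TSW, and 5.04 and 5.69 in CO, so the alpha subunit was the more abundant RNA in all 6 libraries. The lncRNA genes ITGB2-AS1 and LOC107987303 overlap ITGB2.

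CD44, the hyaluronan receptor (Entrez ID 960, chromosome 11, 35139171 to 35232402), was the called gene that was lower in both comparisons with MONO in MM.1S. Its level there was 69.2, 97.4 and 96.8 RPKM in MONO, 50.2, 52.0 and 47.1 in TSW, and 40.1, 39.3 and 34.4 in CO. The conditions did not overlap, in the order MONO, TSW, CO. CD44 fell by 0.79 on the log2 scale in TSW (SE 0.13, limma adjusted p = 0.00141) and by 1.18 in CO (adjusted p = 9.48e-05), and the -0.39 of CO against TSW was not called (adjusted p = 0.746). RPMI8226 expressed little CD44, 0.944 and 1.16 RPKM in MONO, 0.876 and 0.951 in TSW, and 1.28 and 1.48 in CO. CO lay above the other conditions there, with a log2 fold change over TSW of 0.31 (limma adjusted p = 0.0578), or 0.60 by voom (adjusted p = 0.0157). CD44 lay close to the filter of 1 RPKM, with means of 1.05 in MONO, 0.914 in TSW and 1.38 in CO. With no filter, limma called none of the 10 genes between CO and TSW in RPMI8226, and voom was run with the filter only. The promoter of CD44, chr11:35138921-35139220 on the plus strand, is shown because the gene fell in MM.1S, and it holds none of the 3 motifs; the noncoding CD44-AS1 and SNORD164 overlap CD44.

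CD44: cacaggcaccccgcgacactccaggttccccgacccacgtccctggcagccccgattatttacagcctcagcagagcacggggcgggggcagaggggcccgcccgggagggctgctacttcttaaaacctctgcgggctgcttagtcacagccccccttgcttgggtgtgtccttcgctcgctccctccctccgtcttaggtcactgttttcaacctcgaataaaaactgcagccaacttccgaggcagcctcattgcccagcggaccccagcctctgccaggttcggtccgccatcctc

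SELPLG, the mucin-like ligand of selectins (Entrez ID 6404, chromosome 12, 108621895 to 108633894), had the largest change of the 10 genes in RPMI8226. Its level there was 60.5 and 63.9 RPKM in MONO, 276 and 316 in TSW, and 321 and 293 in CO. All TSW and CO libraries lay far above MONO, and TSW and CO overlapped. SELPLG rose by a log2 fold change of 2.23 in TSW (SE 0.08, limma adjusted p = 8.15e-09) and 2.29 in CO (adjusted p = 5.71e-09). MM.1S held 271, 226 and 207 RPKM in MONO, 238, 238 and 216 in TSW, and 224, 218 and 171 in CO. Those ranges overlapped, with log2 fold changes of -0.02 in TSW (adjusted p = 0.931) and -0.20 in CO (adjusted p = 0.273).

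**Figure D3:**
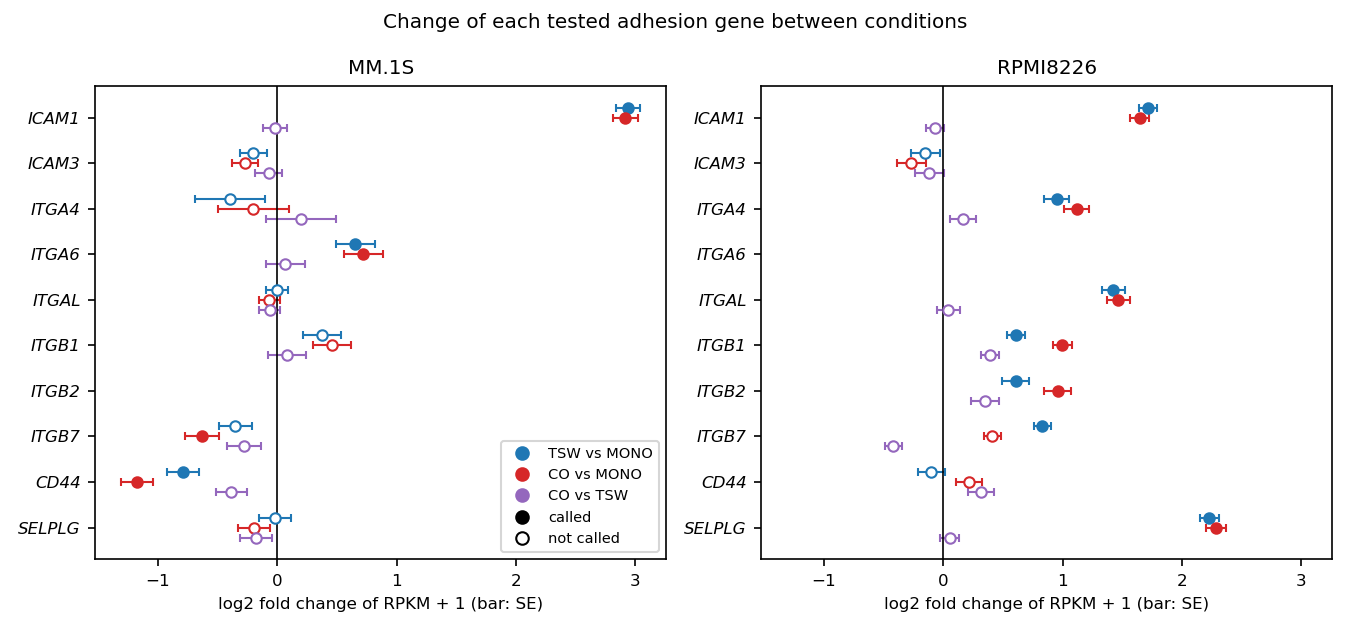
Log2 fold change of RPKM + 1 with its SE for each tested gene, in MM.1S (left, n = 3 per condition) and RPMI8226 (right, n = 2); filled points were called by limma. ICAM1 (2.94 and 1.72 in TSW) is to the right of 0 in both panels, CD44 is left of 0 in MM.1S, and SELPLG, ITGAL and ITGA4 are right of 0 in RPMI8226.

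The order of the mean levels also differed between conditions within a line. In MM.1S MONO, ITGB7 (2071 ± 218 RPKM, SD, n = 3) was followed by SELPLG (235 ± 33.0), CD44 (87.8 ± 16.1), ICAM3 (51.8 ± 8.41), ITGB1 (32.4 ± 8.41), ITGA4 (28.9 ± 13.6), ITGAL (27.2 ± 1.85), ITGA6 (4.78 ± 1.47) and ICAM1 (3.74 ± 0.529). ITGB1, ITGA4 and ITGAL did not differ beyond their spread, nor did ITGA6 and ICAM1. In MM.1S CO, ITGB1 (43.8 ± 2.44) and ICAM3 (42.4 ± 2.67) overlapped, as did CD44 (37.9 ± 3.08) and ICAM1 (34.8 ± 2.52), so CD44 stood below ITGB1 and ICAM3 there, and ICAM1 above ITGAL, ITGA4 and ITGA6. In RPMI8226 MONO the order was ITGB7 (340 ± 19.6 RPKM, SD, n = 2), SELPLG (62.2 ± 2.44), ICAM1 (59.4 ± 1.51), ITGB1 (17.3 ± 0.323), ICAM3 (4.89 ± 0.383), ITGAL (3.21 ± 0.328), ITGA4 (3.18 ± 0.00874), CD44 (1.05 ± 0.154), ITGB2 (0.540 ± 0.121) and ITGA6 (0.0603 ± 0.0463). SELPLG and ICAM1 overlapped, and so did ITGAL and ITGA4. In RPMI8226 TSW and CO, ITGAL and ITGA4 stood above ICAM3, and ITGB2 stood above CD44. RPKM was scaled by the PETs of each library in both lines, and levels were compared within a line only.

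The levels of 8 genes allowed a test of the difference between the lines. The change from MONO to TSW differed for 6 of 8, beside 38.5% of all 9397 genes tested, and that from MONO to CO for 6 of 8, beside 44.5%. For CO against TSW limma called 0 of 8, beside 0.138%, where 1 of the 8 had an unadjusted p under 0.05 and voom called 0. SELPLG rose more in RPMI8226, by a difference in log2 fold change of 2.25 in TSW (SE 0.19, limma adjusted p = 9.15e-07) and 2.48 in CO (adjusted p = 2.89e-07). ITGAL (1.43 and 1.54) and ITGB7 (1.18 and 1.04) also had positive differences, and ITGB7 is the gene called lower in MM.1S CO and higher in RPMI8226 TSW. ICAM1 rose more in MM.1S on this scale, with differences of -1.22 in TSW (limma adjusted p = 1.85e-05) and -1.27 in CO (adjusted p = 8.80e-06).

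The changes of ITGA4 and CD44 against MONO also differed between the lines. ITGA4 differed by 1.35 in TSW (SE 0.41, limma adjusted p = 0.0181) and 1.32 in CO (adjusted p = 0.0177). Without MM.1S MONO replicate 1 these were 1.81 (adjusted p = 1.35e-07) and 1.78 (adjusted p = 1.10e-07). The difference kept its size where the call was lost: in TSW 1.35, 1.35 and 1.217 (adjusted p = 0.0535, 0.0524 and 0.0728) without replicate 1 or 2 of RPMI8226 MONO or replicate 1 of RPMI8226 TSW, and in CO 1.32 and 1.30 (adjusted p = 0.0505 and 0.0549) without replicate 2 of RPMI8226 MONO or replicate 1 of RPMI8226 CO. CD44 differed by 0.69 in TSW (SE 0.19, limma adjusted p = 0.00955) and 1.39 in CO (adjusted p = 4.09e-05). In CO it was called under all 22 alternatives in which it was tested, which leave out the filter at a mean of 5 RPKM that it does not pass, and in TSW it was 0.60 by voom (adjusted p = 0.0956) and 0.62 without replicate 1 of RPMI8226 MONO (adjusted p = 0.05003), close to the size with all libraries. Without replicate 1 of MM.1S MONO, CD44 also differed in CO against TSW (0.70, adjusted p = 0.016, against 0.206 with it). ITGB1, not called at 0.23 in TSW (adjusted p = 0.431) and 0.54 in CO (adjusted p = 0.0609), was called without that library at 0.46 (adjusted p = 0.00182) and 0.77 (adjusted p = 2.08e-05). In CO it was also called with median-of-ratios scaling (0.66, adjusted p = 0.0213) and by voom (0.59, adjusted p = 0.047). A replicate block also gave a call of ITGB1 in CO (0.54, limma adjusted p = 0.0475). ICAM3 differed by 0.05 in TSW and 0.00 in CO and was not called.

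**Figure D4:**
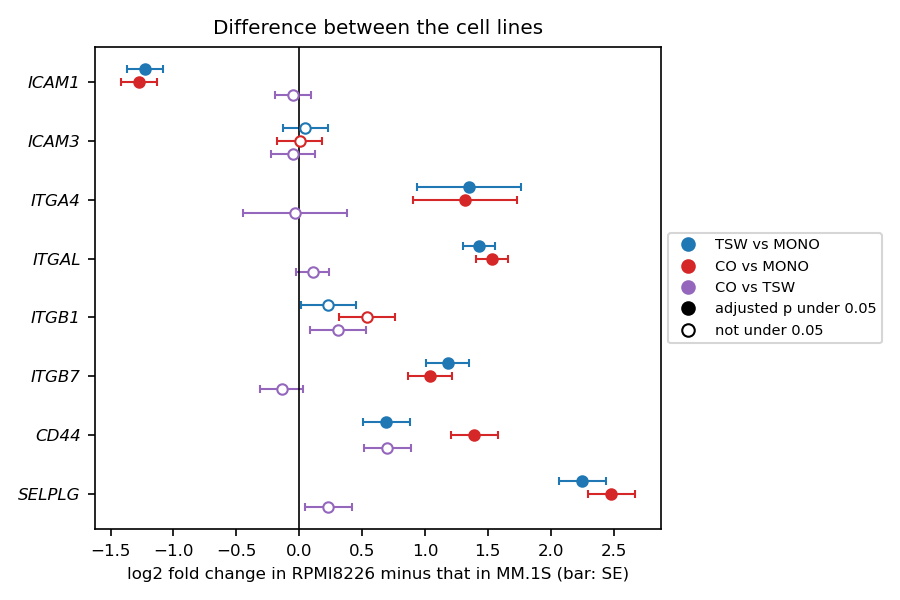
Difference between the cell lines, the log2 fold change in RPMI8226 minus that in MM.1S, with its SE, for the 8 genes tested in both lines; filled points had an adjusted p under 0.05. SELPLG (2.25 and 2.48), ITGAL, ITGA4, ITGB7 and CD44 lie right of 0 and ICAM1 (-1.22 and -1.27) left of it in the comparisons with MONO.

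CO libraries shared their chamber with HS5 cells, and 42 of 44 listed stromal marker genes were in the tables. In MM.1S, 22 to 26 of the 42 were at 1 RPKM or more in CO, against 7 in MONO and 6 to 7 in TSW. Their summed level was 198 to 232 RPKM in CO, 49.7 to 56.2 in MONO and 41.9 to 42.5 in TSW, and MMP1, at 0 in MONO and TSW, was the most abundant in CO at 41.04 to 46.94 RPKM. In RPMI8226, 18 to 21 of the 42 were at 1 RPKM or more in CO, against 6 in MONO and 6 to 7 in TSW. FN1 was the most abundant there in all 6 libraries and set the sum, 4058 and 4382 RPKM in MONO, 1734 and 2020 in TSW and 2166 and 2373 in CO; without FN1 the sum was 68.0 and 71.7, 56.2 and 58.4, and 159 and 204 RPKM. Of the defining markers COL1A1, COL1A2, COL3A1, THY1 and PDGFRB, COL1A2 and COL3A1 were at 0 in every MONO and TSW library of both lines. COL1A2 stood at 10.2 to 13.4 RPKM in MM.1S CO and 4.06 and 5.85 in RPMI8226 CO, and THY1, the CD90 of the sort, at 0.453 to 0.570 and 0.0767 to 0.111 RPKM. The part of stromal RNA in the CO levels of ITGB1, CD44, ICAM1 and the other genes was not tested.

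**Figure D5:**
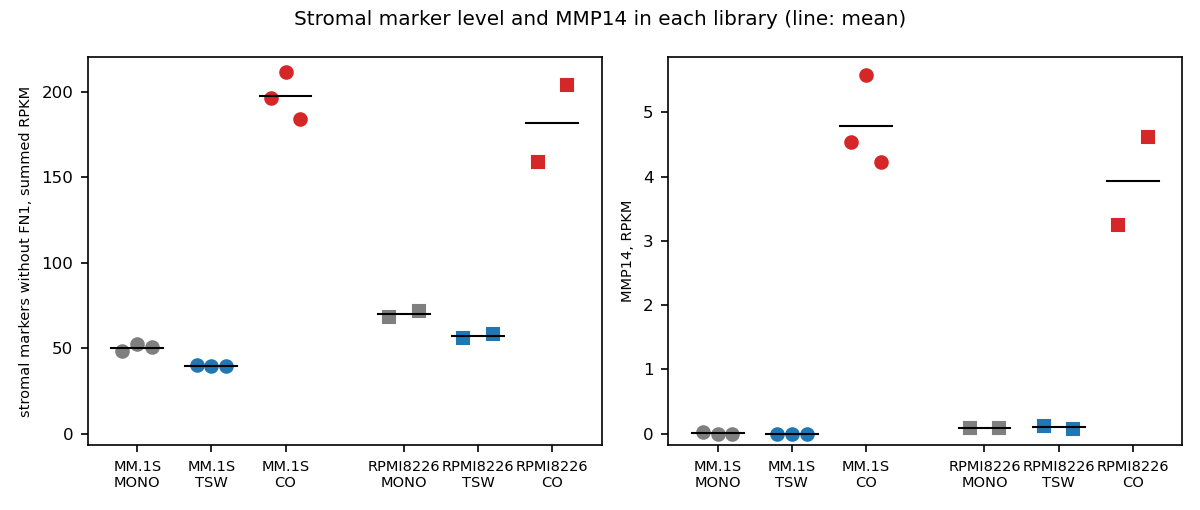
Summed RPKM of the stromal markers other than FN1 (left) and RPKM of MMP14 (right) in each library, with the condition mean as a line. CO libraries of both lines (159 to 212 RPKM) are above all MONO and TSW libraries (39.4 to 71.7 RPKM), and MMP14 is near 0 except in CO.

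Beyond the 10 genes, lists of other adhesion genes held 116 genes, of which 114 were in the tables. In MM.1S, 65 were tested; 5 were higher (6.48% of all genes) and 8 lower (4.16% of all genes) in TSW against MONO, and 8 were higher (7.13%) and 8 lower (4.65%) in CO. In RPMI8226, 72 were tested; 20 were higher (14.5% of all genes) and 9 lower (17.9%) in TSW, and 25 higher (16.4%) and 8 lower (22.9%) in CO. The median log2 fold change of the tested genes was -0.09 and -0.11 in MM.1S and 0.25 and 0.34 in RPMI8226, in TSW and CO, beside 0.01, 0.01, -0.08 and -0.09 over all genes. CO against TSW gave 1 higher and 0 lower by limma in MM.1S, beside 0.374% and 0.0394% of all genes, where 3 had an unadjusted p under 0.05, and 4 higher and 1 lower in RPMI8226, beside 1.90% and 2.39%.

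Of 19 other integrin subunits in the tables, 7 were tested in RPMI8226 and 5 in MM.1S. ITGAX was among the 7 only through its TSW and CO levels. In RPMI8226, 6 of 7 were higher in TSW and 6 of 7 in CO, beside 14.5% and 16.4% of all genes. MM.1S had 1 of 5 higher and 1 lower in each, beside 6.48% and 7.13% higher and 4.16% and 4.65% lower. ITGAX, the alpha subunit of an ITGB2 integrin of myeloid cells, stood in RPMI8226 at 0.101 and 0.228 RPKM in MONO, 11.7 and 14.1 in TSW, and 16.9 and 17.6 in CO. ITGAM, another partner of ITGB2, went there from 2.05 and 2.02 to 7.68 and 8.50 in TSW and 11.7 and 13.4 RPKM in CO. Neither passed the filter in MM.1S, where ITGAX was at most 0.0739 RPKM and ITGAM at most 0.558. In RPMI8226 the RNA of ITGB2 and of its alpha partners ITGAL, ITGAM and ITGAX was higher in TSW and CO (limma adjusted p from 9.80e-10 to 0.000918), with ITGAX, like ITGB2, passing the filter only through TSW and CO. The other alpha partner ITGAD, added after its values were seen and at most 0.190 RPKM, did not pass it; with no filter its log2 fold change was -0.05 in TSW (adjusted p = 0.656) and -0.02 in CO (adjusted p = 0.871), while ITGAX was called (adjusted p = 4.43e-05 and 2.62e-05). ITGAV, a partner of ITGB1, rose in RPMI8226 by log2 fold changes of 0.89 in TSW and 1.25 in CO. In MM.1S it stood at 1.79, 4.07 and 4.38 RPKM in MONO, 5.12 to 5.79 in TSW and 5.40 to 6.17 in CO, with replicate 1 of MONO far below the others. It was called there at 0.61 (limma adjusted p = 0.0471) and 0.67 (adjusted p = 0.0306), and without replicate 1 of MONO it was 0.31 (adjusted p = 0.0201) and 0.37 (adjusted p = 0.00859), under the fold change of 1.5. ITGA8, a partner of ITGB1 as well, fell in MM.1S from 7.30 to 12.4 RPKM in MONO to 3.83 to 4.83 in TSW and 3.12 to 3.64 in CO. VCAM1, a ligand of the ITGA4 and ITGB1 integrin picked out after its values were seen, was listed at 0 in all 15 libraries.

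The selectin axis list has among its genes the enzymes that make the glycans of SELPLG. In MM.1S, limma called 0 higher and 1 lower of 8 tested in TSW, and 1 and 1 in CO. Of the 8, 5 had an unadjusted p under 0.05 in each. Of all genes, 6.48% and 7.13% were higher and 4.16% and 4.65% lower. In RPMI8226, 6 of 9 tested were higher in TSW and 5 of 9 in CO, beside 14.5% and 16.4% of all genes. There 0 were lower by limma, with 9 of 9 at an unadjusted p under 0.05. GCNT1, an enzyme of the core glycan branch, and TPST2, a tyrosine sulfotransferase, both named after their values were seen, rose there with SELPLG by 1.39 and 1.53 on the log2 scale in TSW (limma adjusted p = 3.83e-07 and 3.59e-08).

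Of the listed genes around CD44, 1 of 10 tested was higher and 1 lower in TSW against MONO in each line. In CO against MONO, 3 were higher and 1 lower in MM.1S, and 3 and 2 in RPMI8226. Of all genes, 6.48% were higher and 4.16% lower in MM.1S TSW, and 14.5% and 17.9% in RPMI8226 TSW. In CO these shares were 7.13% and 4.65% in MM.1S and 16.4% and 22.9% in RPMI8226. The listed ligand SPP1 rose in both lines. RPMI8226 had 0 PETs of SPP1 in both MONO libraries, 70.4 and 85.2 RPKM in TSW and 76.4 and 84.8 in CO, at least 637-fold and at least 660-fold higher against the mean level of 3 PETs per MONO library. In MM.1S SPP1 was 0.0612 to 0.374 RPKM in MONO, 2.31 to 3.67 in TSW and 2.44 to 2.94 in CO (limma adjusted p = 1.60e-05 and 3.48e-05). SPP1 passed the filter through TSW and CO in both lines; with no filter it was also called in MM.1S (adjusted p = 0.000241 and 0.000278) and RPMI8226 (adjusted p = 8.95e-06 and 7.75e-06). MMP14, a protease that cleaves CD44, was the 1 other adhesion gene called between CO and TSW in MM.1S, at 0 PETs in the TSW libraries and 4.54, 5.58 and 4.23 RPKM in CO, at least 81.1-fold higher by the same reckoning. In RPMI8226 it was 0.120 and 0.0776 RPKM in TSW and 3.26 and 4.62 in CO (limma adjusted p = 5.68e-06). MMP14 passed the filter only through CO, and with no filter CO against TSW was also called in MM.1S (adjusted p = 4.18e-07) and RPMI8226 (adjusted p = 0.00376). It moved with the stromal markers, and the part of stromal RNA in it was not tested. CD74, a partner of CD44, fell in MM.1S by 0.85 in TSW and 0.84 in CO (limma adjusted p = 0.000411 and 0.000421) and rose in RPMI8226 CO by 0.77, and HMMR, another hyaluronan receptor, rose in MM.1S CO by 0.86 (adjusted p = 0.00279) and fell in RPMI8226 TSW by 0.83 (adjusted p = 0.000464).

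Of the proteins that act on integrin tails, FERMT1, a kindlin that binds beta subunits, fell in RPMI8226 from 66.2 and 65.5 RPKM in MONO to 16.7 and 15.7 in TSW and 14.5 and 14.9 in CO (limma adjusted p = 8.64e-09 and 4.88e-09). TLN2, a talin, fell there by 1.20 in TSW and 1.14 in CO on the log2 scale, and ITGB1BP1, which binds the tail of ITGB1, by 1.13 in CO, while CYTIP, a regulator of ITGB2 integrins, rose by 1.61 in TSW. In MM.1S SKAP1, an adaptor of integrin activation (0.85 in TSW), and LIMS1, an adaptor of integrin-linked kinase (0.66 and 0.89), rose and FLNA, a filamin that binds beta tails, fell by 0.99 in TSW and by 0.96 in CO. In RPMI8226 CO against TSW, LIMS1 (0.78), which had fallen by 0.79 in TSW against MONO, and RAP1B (0.62), a small GTPase upstream of talin, were higher. Of 28 such genes in the tables, 2 of 23 tested were higher and 1 lower in each comparison with MONO in MM.1S, where 6.48% and 7.13% of all genes were higher and 4.16% and 4.65% lower in TSW and CO. In RPMI8226 2 of 22 were higher and 4 lower in TSW, beside 14.5% and 17.9% of all genes, and 5 and 4 in CO, beside 16.4% and 22.9%.

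The other immunoglobulin-family molecules gave 1 higher and 1 lower of 10 tested in each comparison with MONO in MM.1S, and in RPMI8226 3 higher and 4 lower of 15 in TSW and 4 and 2 in CO, beside the shares of all genes given for the integrin tails. CEACAM1 rose in MM.1S by 0.70 in TSW and 0.92 in CO, and NCAM1, a homophilic adhesion molecule, fell in RPMI8226 from 10.6 and 10.0 RPKM in MONO to 0.531 and 0.530 in TSW and 0.453 and 0.412 in CO; it passed the filter only through MONO, and with no filter it was also called (adjusted p = 3.02e-05 and 2.42e-05). MCAM fell in RPMI8226 CO by 1.09. CD99 fell in RPMI8226 TSW by 1.04 and was 1.12 higher in CO than in TSW, both also called with no filter (adjusted p = 0.000291 and 0.00424), and ICAM2, the relative of ICAM1 and ICAM3, fell by 0.61 in CO against TSW (limma adjusted p = 0.00554). Of the tetraspanins, membrane partners of integrins, 0 of 9 tested were higher by limma and 3 lower in MM.1S in each comparison with MONO, among them TSPAN33 (-1.05 in TSW, -1.22 in CO) and CD82 (-0.90 in TSW), with 4 and 5 of 9 at an unadjusted p under 0.05 and 4.16% and 4.65% of all genes lower. In RPMI8226 2 of 9 were higher in each, beside 14.5% and 16.4% of all genes, with CD53 going from 15.8 and 19.1 RPKM in MONO to 90.7 and 99.5 in TSW and 89.7 and 96.5 in CO.

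Because ITGAX, ITGAM and ITGB2 are also genes of myeloid cells, 6 myeloid markers were read beside them in RPMI8226. Their summed level was 30.0 and 31.6 RPKM in MONO, 94.9 and 107.6 in TSW, and 125.4 and 116.3 in CO, and CD68 was the most abundant, at 29.8 and 31.0, 81.5 and 91.0, and 106.2 and 95.5 RPKM. ITGAX is itself on that list. FCGR3A was at 0 in all 6 libraries, CD14 was at most 0.112 and LYZ at most 0.283 RPKM, and CSF1R went from 0.0797 and 0.168 RPKM in MONO to 1.53 to 2.23 in TSW and 2.03 to 3.004 in CO.

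The genes whose levels ran most like those of each called gene were sought among 9397 genes by Pearson's r over the 15 libraries, each line centred on its own mean, as a description without a test; 7 of the 9 genes called in any comparison could be compared. For ICAM1 these were ZNRF1 (r = 0.995), IL32 (0.994) and SREBF1 (0.992); IL32 in MM.1S was 0.262 ± 0.0721 RPKM in MONO (SD over 3 libraries), against 75.8 ± 8.82 for TSW and 91.0 ± 3.15 for CO. SELPLG ran most like HLA-C (0.994), HLA-E (0.992) and VPS37B (0.987), and ITGAL like HLA-E (0.989), SRGN (0.989) and NPC2 (0.987). HLA-E in RPMI8226 was 42.8 ± 0.345 RPKM in MONO (SD over 2 libraries), against 169.9 ± 5.17 for TSW and 191.9 ± 8.36 for CO. ITGB1 had ITGAV (0.99), ZNF217 (0.987) and CCDC186 (0.986) nearest to it. ITGA4 ran most like PARP4 (0.967), RUFY3 (0.958) and PDE3B (0.946), ITGB7 like GMFG (0.963), PDIA4 (0.961) and MGST3 (0.956), and CD44 like ADGRG5 (0.933), MYO1D (0.912) and ADD1 (0.905). GMFG, beside ITGB7, was 132 ± 28.7 RPKM in MM.1S MONO and 66.5 ± 7.91 in CO, and in RPMI8226 46.5 ± 1.24 in MONO and 111.5 ± 7.46 in TSW. Replicate 1 of MM.1S MONO, the lowest MONO library of that line for ITGA4 and ITGB1, was also the lowest for all their named neighbours. ITGAV there was 1.79 RPKM against 4.07 and 4.38 in the other MONO libraries, and PDE3B 5.84 against 10.7 and 11.5. The r values were not computed without that library. The 15 libraries share their conditions, and whether these genes share a regulator was not tested.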

How the data were processed

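The authors aligned paired-end reads to hg38 and counted PETs on RefSeq genes with Subread and featureCounts. The deposited values are log2(RPKM + 1) with 0.0001 added, a scale found from the values, and the offset was subtracted. PET counts were recovered by seeking, for each gene, a unit that makes its values whole. In the end 100% of values were whole within 0.05. The search itself aims at this, so it is no separate check of the counts. Fits used limma 3.58.1 in R 4.3.3 with a mean-variance trend, tested on simulated data; tables and figures used Python 3.11.15, numpy 2.4.6, pandas 2.3.3 and matplotlib 3.10.9. The authors used edgeR, which is not used here, and their ATAC data are not analysed here. Members and lists were chosen with earlier results of these data known. Of the other adhesion genes, up to 5 called genes with the largest log2 fold change in each direction of each comparison are named, and 3 neighbours per gene; 1 gene that this rule names is not reported here. Alternatives were a pseudocount of 0.1, no filter, a mean of 5 RPKM, median-of-ratios scaling, a replicate block, no trend, no fold change threshold, voom on recovered PETs, each library left out, and promoters of 200 bases. Floors of 3 PETs cover counting error only.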

Additional observations from a re-analysis of the deposited data

Results flagged for a closer look

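For 6 genes the change against MONO differed between the lines by limma's test of the difference, the log2 fold change in RPMI8226 minus that in MM.1S. In TSW against MONO the differences were 2.25 for SELPLG, 1.18 for ITGB7, 1.43 for ITGAL, 1.35 for ITGA4, -1.22 for ICAM1 and 0.69 for CD44. In CO against MONO, with the same MONO libraries, they were 2.48 for SELPLG, 1.04 for ITGB7, 1.54 for ITGAL, 1.32 for ITGA4, -1.27 for ICAM1 and 1.39 for CD44. What makes the lines differ was not tested.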

How the results depend on the processing

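Of 258 counts under alternative settings taken over both directions together, 244 stayed within 1.5 times the reported count and 14 did not; the cause was not tested except where the setting itself removes a threshold. Having no fold change threshold lets in smaller changes. In MM.1S, 26 and 34 of 65 other adhesion genes were then called in TSW and CO against MONO. Of all 10153 genes, 2769 and 3175 were called. In RPMI8226 the counts were 52 and 56 of 72, beside 6921 and 7422 of all 10319 genes. In RPMI8226 CO against TSW, 23 of 72 other adhesion genes and 3 of 9 members were called, beside 2849 of all 10319 genes. In MM.1S CO against TSW, other adhesion genes called were 4 of 107 with no filter, beside 134 of all 16587 genes. At a mean of 5 RPKM they were 0 of 51, beside 7 of all 7278 genes. Counts by direction also moved at a mean of 5 RPKM, with 51 genes tested in MM.1S and 54 in RPMI8226. Against MONO, other adhesion genes higher in MM.1S went from 5 to 2 in TSW and from 8 to 3 in CO. Those lower in RPMI8226 went from 9 to 5 in TSW and from 8 to 5 in CO. In RPMI8226 CO against TSW, voom called 1 member, and 3 other adhesion genes were called at a mean of 5 RPKM, and leaving out single libraries gave 2 to 6. Members differing between the lines in CO against TSW were 0 to 1 over the libraries left out. In 200 bases the members with an NF-kappaB type motif went from 2 to 1, since the match in ICAM1, at base -186, lies outside the shorter window.

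Of 1374 member values, 1318 kept their call and direction, 14 were weaker, 14 stronger and 28 reversed in sign. Between the lines the reported call already has no fold change threshold, so that setting could not change a call or count there. ICAM3 between the lines in CO against MONO turned to -0.05 (-0.0457) with a pseudocount of 0.1 and to -0.05 (-0.0514) by voom; the cause was not tested.

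With single libraries left out, signs turned within these ranges, and the cause was not tested. In MM.1S, TSW against MONO ran from -0.0553 to 0.0402 for ITGAL and -0.103 to 0.0901 for SELPLG, CO against MONO from -0.663 to 0.0695 for ITGA4, and CO against TSW from -0.0707 to 0.0313 for ICAM1. In RPMI8226, ICAM3 in TSW ran from -0.320 to 0.0185, and CO against TSW from -0.170 to 0.0282 for ICAM1, -0.287 to 0.0518 for ICAM3, -0.0216 to 0.106 for ITGAL and -0.0418 to 0.151 for SELPLG. Between the lines ICAM3 ran from -0.119 to 0.219 in TSW and -0.123 to 0.0895 in CO, and CO against TSW from -0.149 to 0.0489 for ICAM1, -0.216 to 0.123 for ICAM3 and -0.169 to 0.102 for ITGA4. With 1 RPMI8226 library left in a condition, that sample is assumed to vary like the others.

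With a replicate block, ITGB1 between the lines in CO against MONO was 0.54 (limma adjusted p = 0.0475). Correlations between libraries of different conditions were taken after the condition mean was subtracted from each library. In MM.1S their mean was 0.00877 (-0.380 to 0.286) for the same replicate number and -0.0044 (-0.411 to 0.442) for different numbers. In RPMI8226 it was 0.202 (0.164 to 0.271) and -0.202 (-0.271 to -0.164). Subtracting the mean leaves the replicates of an RPMI8226 condition equal with opposite signs. The different-number values there only mirror the same-number values and are no separate comparison. Median-of-ratios scaling moved the genes that differed between the lines in CO against MONO from 1498 higher and 2681 lower to 1867 and 2076, and the median difference from -0.14 to -0.03. The integrin beta tails were not run, because no protein table was used here.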
